A study of Homo sapiens with 12 samples.

Results

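The genes described here encode the proteins of the cytosolic ribosome and the factors that carry out the elongation step of translation, measured in a human cell line used as a model of microglia. They were chosen by symbol among protein-coding genes: RPL or RPS followed by a digit, RPLP followed by a digit, RPSA, and the elongation factor genes EEF1A1, EEF1B2, EEF1D, EEF1G and EEF2. Ribosomal protein kinases, binding proteins and the paralogs whose names end in L were left out. The choice gave 87 genes of the 36315 in the data, namely 43 of the large subunit, 3 of its stalk (RPLP0, RPLP1 and RPLP2), 33 of the small subunit, 5 elongation factor genes and 3 readthrough loci that join a ribosomal protein gene to its neighbour (RPL17-C18orf32, RPL36A-HNRNPH2 and RPS10-NUDT3). The 2 small subunit genes on the Y chromosome (RPS4Y1 and RPS4Y2) were counted and are not described further. The other 85 passed the filter on low counts and were tested among 21601 genes.

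A ribosome is built from a small subunit, which reads the mRNA, and a large subunit, which joins the amino acids. Because each ribosome holds a single copy of nearly every protein, the genes for these proteins are expressed together and at high levels in growing cells. Their mRNAs begin with a C followed by a run of pyrimidines, the 5' terminal oligopyrimidine (5'TOP) motif, which LARP1 binds and through which the kinase mTORC1 controls their translation and stability. The same motif heads the mRNAs of the elongation factors eEF1A, which brings aminoacyl-tRNA to the ribosome, eEF1B, which recharges eEF1A with GTP, and eEF2, which moves the ribosome along the mRNA.

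HMC3 is an immortalized human cell line derived from microglia. Cells received an siRNA against ephrin-B1 or a negative control siRNA for 48 h, and then for 24 h a pre-clustered Fc protein at 2 ug/mL, which was either EphB2-Fc, the receptor ectodomain that binds ephrin-B ligands, or Ctrl-Fc. This gave 4 groups of 3 libraries: EphB2 + ephrin-B1 siRNA (EphB2-Fc after ephrin-B1 siRNA), EphB2 (EphB2-Fc after control siRNA), ephrin-B1 siRNA (Ctrl-Fc after ephrin-B1 siRNA) and Ctrl (Ctrl-Fc after control siRNA). All groups thus received a transfection and an Fc protein. The RNA, from which rRNA had been removed, was read from both ends at 100 bases, and estimated counts and TPM of transcripts were summed here per gene. The study describes the replicates as biological, and the labels do not say whether they were separate cultures, so that p-values measure the spread between these libraries.

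Libraries held between 13230689 and 25785591 estimated counts. EFNB1, the gene for ephrin-B1, was at 6.56, 6.03 and 6.38 CPM in EphB2 + ephrin-B1 siRNA, against 15.6, 18.8 and 18.4 CPM in EphB2, and at 7.1, 6.6 and 8.7 CPM in ephrin-B1 siRNA, against 20.4, 17.5 and 19.3 CPM in Ctrl (counts per M counts). It thus fell with the siRNA with either Fc protein (edgeR, adjusted p = 0.00189 and 0.00124). Of 10 microglia markers 8 were tested, and AIF1 was at 0 in all 12 libraries, although it lies in the MHC region, where transcripts of alternate haplotypes were not paired with a gene. The markers summed to 32.8 to 42.2 CPM in EphB2 + ephrin-B1 siRNA, 33.4 to 47.5 CPM in EphB2, 28.3 to 31.2 CPM in the siRNA alone, and 24.6 to 32.2 CPM in Ctrl, most of it CD68, while the 8 mesenchymal markers summed to 12061 to 17667, 13019.5 to 23330, 11809 to 17328 and 13244 to 23569 CPM in this order of groups. Most of the mesenchymal sum was FN1, while COL3A1 was at 0 in Ctrl and at 0.158 CPM or less elsewhere. The 4 epithelial markers summed to 301.1 to 540.9 CPM over the groups. The part of these markers in the results below was not tested. Libraries of 1 replicate number carry the same experiment number in the submitted file names and were taken as pairs.

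The start of the mRNA is shown first, since the pyrimidine run there is the sequence feature that the genes share and that the choice by symbol did not use. In RefSeq's promoter table (GRCh38.p14) 70 of the 87 genes were found, 66 of them neither readthrough nor Y-linked. Each line gives 10 bases before and 20 bases from an annotated transcription start, on the strand of the gene, and capitals mark the run of C and T that begins with a C at the start itself. For a gene with several annotated starts, the start with the longest such run is shown. The genes are elongation factors and ribosomal protein genes whose values or calls are given below, both with and without a run at the annotated start. RPL8 is not shown.
EEF2 (chr19:3985444-3985473, minus strand): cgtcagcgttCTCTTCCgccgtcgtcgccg
EEF1A1 (chr6:73521013-73521042, minus strand): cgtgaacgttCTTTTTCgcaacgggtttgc
EEF1B2 (chr2:206159885-206159914, plus strand): ctcttcgggtCCTTTTTCCTCTCTTCagcg
RPLP0 (chr12:120201092-120201121, minus strand): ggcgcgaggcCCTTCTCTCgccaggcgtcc
RPL28 (chr19:55385922-55385951, plus strand): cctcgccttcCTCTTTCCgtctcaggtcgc
RPL22 (chr1:6199576-6199605, minus strand): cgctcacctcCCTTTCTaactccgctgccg
RPS16 (chr19:39435930-39435959, minus strand): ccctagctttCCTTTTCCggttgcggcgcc
RPS21 (chr20:62387093-62387122, plus strand): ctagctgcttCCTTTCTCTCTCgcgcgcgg
RPSA (chr3:39406710-39406739, plus strand): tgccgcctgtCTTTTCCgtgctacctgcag
EEF1G (chr11:62573872-62573901, minus strand): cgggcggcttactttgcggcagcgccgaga
RPL4 (chr15:66504836-66504865, minus strand): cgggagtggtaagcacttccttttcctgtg
RPL3 (chr22:39319604-39319633, minus strand): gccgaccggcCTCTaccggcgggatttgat
RPL6 (chr12:112411423-112411452, minus strand): gtatcctcagtgaatcagaaccagaaaaag
RPS4X (chrX:72277229-72277258, minus strand): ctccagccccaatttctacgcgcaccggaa

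A run of at least 5 pyrimidines that begins with C at the annotated start was present in 49 of these 66 genes (74.2%), against 5.14% of 27305 genes in the table. Within 10 bases of a start on either side, 60 of the 66 (90.9%) had such a run, against 38.4% of all genes. For a gene with several annotated starts, this need not be the start shown. The length of the run at the start was 7 in EEF2 and EEF1A1, 8 in RPL28 and RPS16, 12 in RPS21 and 16 in EEF1B2, while RPL4 has a run of 12 that begins within 10 bases of its annotated start. It was 4 in RPL3, and RPL6, RPL15, RPS4X and EEF1G had none at the start. RPL15 has a run of 13 within 10 bases of an annotated start, but of another start than the one taken by the rule above. The starts are annotated and were not measured in these cells, and that of RPL6 lies inside its gene (112405189 to 112418838). The letters CTTCCG, the core that ETS factors bind, were in the 250 bases before to 50 after the start of 42 of the 66 (63.6%), against 22.6% of all genes. ATGGCG, the core bound by YY1, was in 27 (40.9%), against 12.7%, and TATAAA was in 6 (9.09%), against 14% of all genes. These are matches of letters on either strand and not measured binding sites, and the C and T letters of CTTCCG can overlap the pyrimidine run.

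Levels were compared between genes in TPM, which is per transcript length. Without the readthrough loci, the mean TPM over 12 libraries lay between 24.3 and 4435, with a median of 1007, and 80 of 82 genes were above 100 TPM. Of the 100 genes with the highest mean TPM, 50 were among them. The 5 highest were RPS21 of the small subunit (3557 to 5592 TPM over the libraries), EEF1A1 (1909 to 4215 TPM), RPS2 of the small subunit (1881 to 3620 TPM), and RPL13 (1894 to 3033 TPM) and RPL4 (1575 to 2905 TPM) of the large subunit. Each range overlaps the next. Library by library, RPS21 was above EEF1A1 in 12 of 12, EEF1A1 above RPS2 in 10, RPS2 above RPL13 in 10 and RPL13 above RPL4 in 9.

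The elongation factors spanned most of this scale. EEF2 was at 747 to 2574 TPM and EEF1G, a subunit of eEF1B, at 957 to 1786 TPM. The other subunit genes of eEF1B were lower, with means of 215 TPM for EEF1D and 198 TPM for EEF1B2. At the low end, RPL9 was at 50.4 to 113 TPM and RPS9 at 10.8 to 46.1 TPM. The value of RPS9 is uncertain, because the transcript set holds alternate haplotypes of its region of chromosome 19 that were not paired with a gene. The readthrough locus RPL17-C18orf32 was at 1.38 to 13.4 TPM, and reads of such a locus cannot be told apart from those of the gene it contains.

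**Figure D1:**
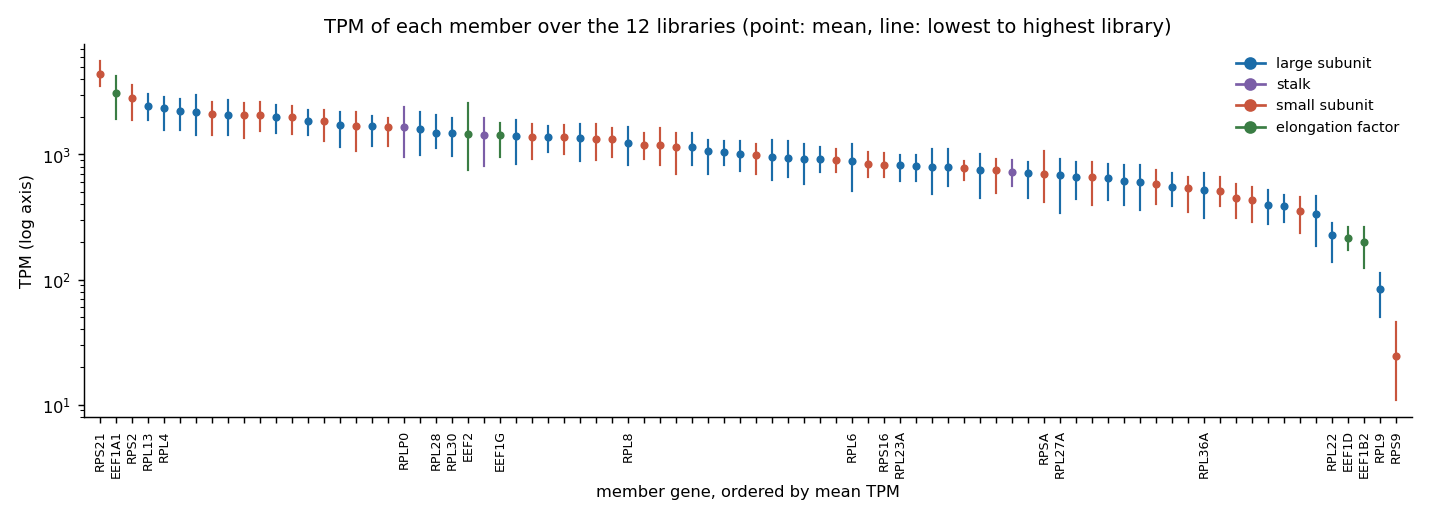
TPM of each of the 82 members that are neither Y-linked nor readthrough, on a log axis. Points are means over the 12 libraries and lines run from the lowest to the highest library, coloured by large subunit, stalk, small subunit and elongation factors, and labels name 22 of the members described. RPS21 leads with a mean of 4435 TPM, and RPL9 and RPS9 are the only members with a mean below 100 TPM.

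Together the members took between 3.11% and 5.27% of the counts that were paired with a gene. The share was 3.22%, 4.79% and 4% in replicates 1, 2 and 3 of EphB2 + ephrin-B1 siRNA, 3.11%, 4.88% and 4.41% in EphB2, 3.52%, 5.26% and 4.62% in ephrin-B1 siRNA, and 3.66%, 5.27% and 4.82% in Ctrl. In every group replicate 1 was lowest, replicate 2 highest and replicate 3 between them, and the ranges of all groups overlapped. Means were 4 ± 0.786% in EphB2 + ephrin-B1 siRNA, 4.13 ± 0.913% in EphB2, 4.47 ± 0.879% in ephrin-B1 siRNA and 4.59 ± 0.828% in Ctrl (SD, n = 3 each). In bulk RNA, fewer cells that express a gene and less of its RNA per cell cannot be told apart.

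Within same-numbered pairs, the share was lower with EphB2-Fc than with Ctrl-Fc in 6 of 6 pairs. The share of TPM, which counts short transcripts more, was lower in 5 of these 6 pairs and nearly equal in the other (9.86% in EphB2 and 9.83% in Ctrl, replicate 3). The mean fragment length that the deposited effective lengths imply was longer with EphB2-Fc in the same 6 pairs, for example 236.2 bases in EphB2 and 229.2 bases in Ctrl for replicate 1. With an offset for effective transcript length in the fit, the median log2 fold change of the members in EphB2 vs Ctrl was −0.15, beside −0.14 without it.

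**Figure D2:**
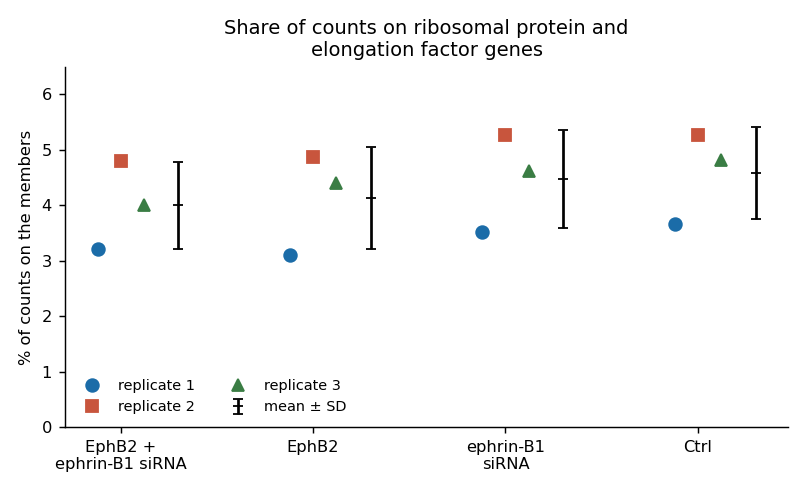
Share of the paired counts on the 87 members, in percent, for each library (points, by replicate number) with the mean (black dash) and SD (error bar) of the 3 libraries of a group. Replicate 1 lies at 3.11% to 3.66%, replicate 2 at 4.79% to 5.27% and replicate 3 between them in each group.

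The order of the replicates was shared by nearly all genes of the set. Replicate 2 was above replicate 1 in all 4 groups for 81 of the 82 genes, against 38.7% of the 8325 genes with a mean above 20 CPM. The median ratio of replicate 2 to replicate 1 was 1.54 in the members and 1.03 in those genes, and replicate 3 lay between the others in 268 of 328 cases (81.7%). The spread within groups was accordingly wide, with a median pooled SD of log2 CPM of 0.339 in the members and 0.12 in the genes above 20 CPM. What differed between the experiments is not given in the sources used here.

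The members differed among themselves in the size of this step. It was largest in RPL27A of the large subunit (ratio of replicate 2 to replicate 1 of 2.27 averaged over the groups), EEF2 (2.23), RPSA (2.14), which is both a small subunit protein and a laminin receptor, and RPLP2 of the stalk (2.05). RPSA was at 362, 677 and 473 CPM in EphB2 + ephrin-B1 siRNA, at 347, 836 and 575 CPM in EphB2, at 345, 775 and 548 CPM in ephrin-B1 siRNA, and at 414, 869.9 and 668 CPM in Ctrl. RPL27A was at 164, 429 and 297 CPM in EphB2 + ephrin-B1 siRNA, at 152, 364 and 382 CPM in EphB2, at 201, 427 and 343 CPM in ephrin-B1 siRNA, and at 194, 389 and 363 CPM in Ctrl. RPLP2 was at 187, 375 and 276 CPM in EphB2 + ephrin-B1 siRNA, at 177, 446 and 392 CPM in EphB2, at 187, 367 and 298 CPM in ephrin-B1 siRNA, and at 241, 427 and 383 CPM in Ctrl. In these genes replicate 1 was the lowest library of every group, and the groups overlapped. RPL36A of the large subunit, with a ratio of 2.04, was also among the 4 most uneven within groups. It was at 70.4, 139 and 107 CPM in EphB2 + ephrin-B1 siRNA, at 56.1, 117 and 141 CPM in EphB2, at 59.1, 147 and 109.9 CPM in ephrin-B1 siRNA, and at 71.4, 121 and 135 CPM in Ctrl.

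RPL28 and RPS16 were among the most even members with at least 100 counts in every library. Their pooled SD of log2 CPM was 0.111 and 0.119, and their ratios of replicate 2 to replicate 1 were 1.1 and 1.13.

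**Figure D3:**
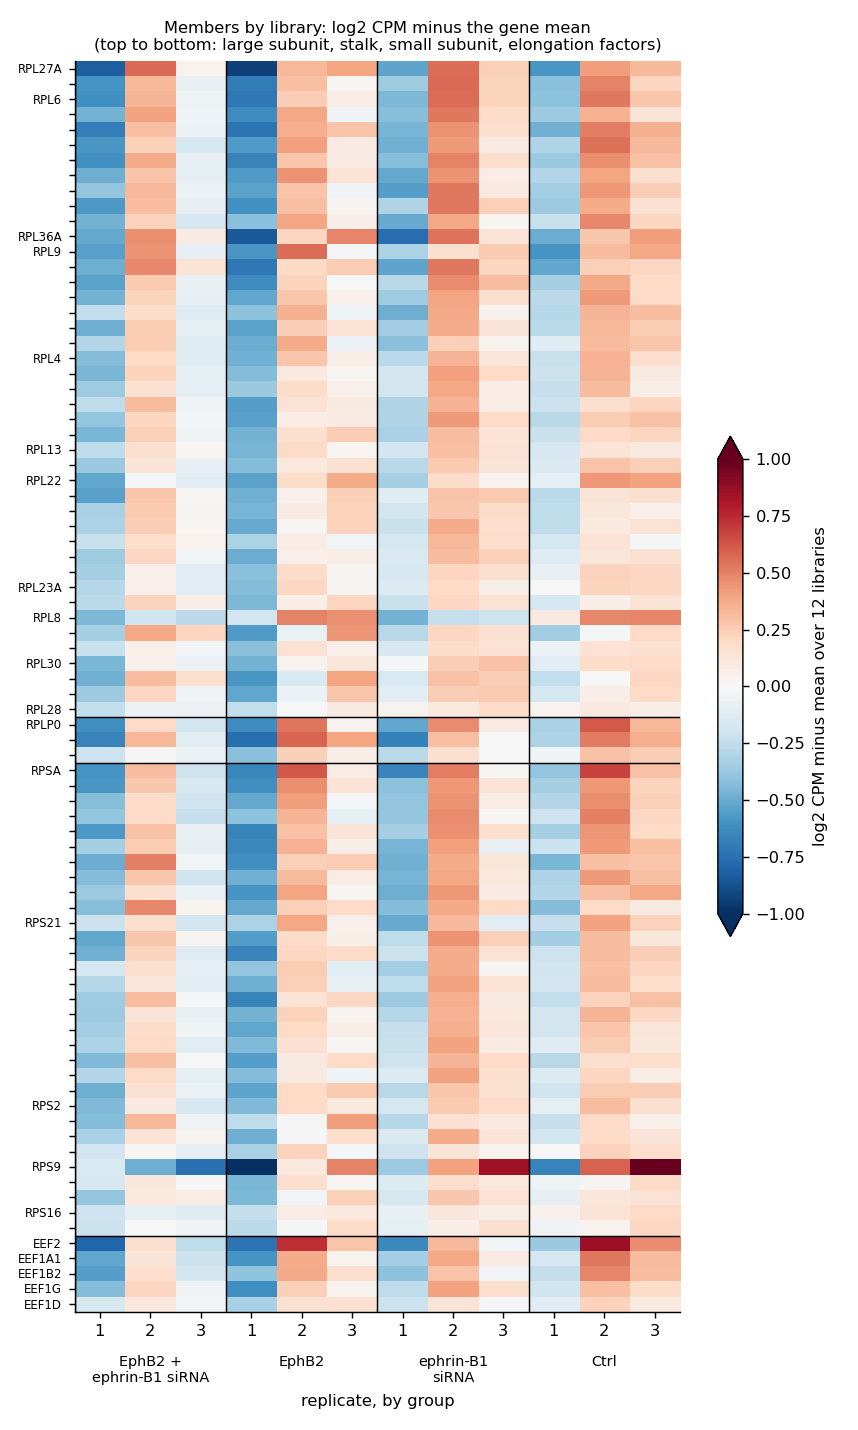
Log2 CPM of each of 82 members (rows, by class) in the 12 libraries (columns, by group and replicate, with the same members labelled), minus the mean of the gene over all libraries. Colours run from −1 (blue) to 1 (red), and values beyond are drawn at the ends. Replicate 1 is blue and replicate 2 red in most rows of every group, while RPL8 is blue in all 6 libraries with ephrin-B1 siRNA.

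EphB2-Fc was compared with Ctrl-Fc after control siRNA (EphB2 vs Ctrl) and after ephrin-B1 siRNA (the combined treatment against the siRNA alone), and these comparisons share no library. After control siRNA 80 of 85 members had a negative log2 fold change and the median was −0.14, while 48.5% of all 21601 genes were negative with a median of 0.007. After ephrin-B1 siRNA 79 of 85 were negative and the median was −0.15, against 49.8% of all genes and a median of 0.001. On the scale of log2(TPM + 1) the medians were −0.22 and −0.44, beside shifts of all genes of −0.030 and −0.199. Genes with a mean above 20 CPM had medians of −0.08 and −0.31 on this scale.

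None of these differences passed the test of edgeR without a block. It called 0 of 85 members in either comparison, against 0.0370% and 0.116% of all genes, and at an unadjusted p under 0.05 it gave 0 and 1 members. Of all 21601 genes 1632 and 1828 had an unadjusted p under 0.05 in this fit. DESeq2 called 0 in both as well. With the replicate number as a block, edgeR called 14 members lower after control siRNA (16.5%), against 3.20% of all genes, and 20 lower after ephrin-B1 siRNA (23.5%), against 4.11% of all genes, and 0 higher. With replicate 1, 2 or 3 left out of every group, the blocked fit called 4, 16 and 0 members after control siRNA, and 22, 8 and 0 after ephrin-B1 siRNA. With the block and an offset for effective transcript length it called 2 and 7. The shares of all genes called in these leave-out and offset settings are not given here.

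Counted by pairs of libraries, 52 of 85 members were lower in 3 of 3 same-numbered pairs after control siRNA and 0 were higher in all 3, against 19.4% of all genes that were lower. After ephrin-B1 siRNA 54 were lower in 3 of 3 pairs and 0 higher, against 22.0% of all genes. Over both comparisons 39 of 85 members were lower in 6 of 6 pairs, against 9.78% of all genes. Same-numbered pairs of the 2 comparisons share an experiment number, so that the 6 pairs are not 6 separate experiments. The members moved together between replicates and are not separate observations either. The size of the change differed between pairs, with medians of −0.28, −0.08 and −0.09 in pairs 1, 2 and 3 after control siRNA and of −0.11, −0.15 and −0.19 after ephrin-B1 siRNA.

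Members called lower with EphB2-Fc in both blocked comparisons were EEF1A1, RPLP0, RPS4X of the small subunit, and RPL3, RPL5, RPL6, RPL7, RPL7A, RPL15 and RPL23 of the large subunit, 10 genes of the 14 and of the 20, against 1.69% of all genes called lower in both. RPL3 lies near the peptidyl transferase centre, and RPL5 binds 5S rRNA. RPL6 was at 354, 689 and 526 CPM in EphB2 + ephrin-B1 siRNA, against 397, 799 and 633 CPM in ephrin-B1 siRNA, and at 332, 643 and 573 CPM in EphB2, against 409, 782 and 660.1 CPM in Ctrl. The groups overlapped, and EphB2-Fc was lower in each pair. In EphB2 vs Ctrl the log2 fold change of RPL6 was −0.26 ± 0.337 without the block (SE, adjusted p = 0.948) and −0.26 ± 0.0465 with it (adjusted p = 0.00485). Of 6 settings with the block 5 gave a call, with an adjusted p of up to 0.0606.

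EEF1A1 was at 3043, 4783 and 3767 CPM in EphB2 + ephrin-B1 siRNA, against 3448, 5727 and 4616 CPM in ephrin-B1 siRNA, and at 2908, 5642 and 4468 CPM in EphB2, against 3869, 6292 and 5455 CPM in Ctrl. It was lower with EphB2-Fc in 6 of 6 pairs, with log2 fold changes of −0.26 after control siRNA (adjusted p = 0.917, 0.0116 with the block) and −0.25 after ephrin-B1 siRNA (adjusted p = 0.917, 0.0228 with the block). Of 6 settings with the block 5 and 4 gave a call, with an adjusted p of up to 0.195 and 0.385. RPL28 had even libraries. It was at 532, 607 and 608 CPM in EphB2 + ephrin-B1 siRNA, against 648, 676 and 723 CPM in ephrin-B1 siRNA, with no overlap (log2 fold change −0.23 ± 0.0923, adjusted p = 0.518, 0.0153 with the block). After control siRNA it was at 534, 632 and 674 CPM in EphB2, against 647, 677 and 660.4 CPM in Ctrl, and the groups overlapped (−0.11 ± 0.0923, adjusted p = 0.884). After ephrin-B1 siRNA only 2 of 6 settings with the block called RPL28, with an adjusted p of up to 0.252.

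RPL30 of the large subunit was at 263, 372 and 345 CPM in EphB2 + ephrin-B1 siRNA, against 356, 426 and 441 CPM in ephrin-B1 siRNA (log2 fold change −0.32, adjusted p = 0.666, 0.00388 with the block). The groups overlapped, with each pair lower, and 5 of 6 settings with the block gave a call, with an adjusted p of up to 0.123. RPL13 had a smaller difference, at 868, 1163 and 1049 CPM in EphB2 + ephrin-B1 siRNA, against 907, 1276 and 1140 CPM in ephrin-B1 siRNA (−0.11, adjusted p = 0.968, 0.304 with the block). By class, medians for EphB2 vs Ctrl were −0.14 in the 43 large subunit genes, −0.16 in 31 small subunit genes, −0.19 in the stalk and −0.18 in the elongation factors.

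Ephrin-B1 siRNA was compared with control siRNA after Ctrl-Fc (ephrin-B1 siRNA vs Ctrl) and after EphB2-Fc (the combined treatment against EphB2), and the set did not share a direction. These comparisons use the libraries of the EphB2-Fc comparisons in another arrangement, so that they share groups with them. After Ctrl-Fc 52 of 85 members were negative, with a median log2 fold change of −0.03 in CPM, while the median was 0.16 in log2(TPM + 1), beside a shift of all genes of 0.120. Genes with a mean above 20 CPM had a median of 0.20 on that scale, above that of the members. After EphB2-Fc 51 were negative and the median was −0.03. Without the block 0 members were called in either comparison, against 1.81% and 0.616% of all genes, with 1 and 1 at an unadjusted p under 0.05. Of all 21601 genes 2608 and 2247 had an unadjusted p under 0.05 in this fit. DESeq2 called 1 in each, RPL8. With the block edgeR called 9 lower, against 7.06% of all genes, and 3 lower, against 5.40%, and 0 higher, so that these shares of the members (10.6% and 3.53%) were near the background. With the length offset as well it called 2 and 2, for which no share of all genes is given. Lower in 3 of 3 pairs were 26 members, against 22.1% of all genes, and 7 members, against 20.7%. Higher in 3 of 3 pairs were 17 members after Ctrl-Fc, against 22.0% of all genes, and 1 after EphB2-Fc, against 19.5%.

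RPL8 had the smallest p of the members in both comparisons. Its product is a large subunit protein next to the peptidyl transferase centre, and the gene lies on chromosome 8 at 144789765 to 144792587, minus strand (GRCh38). RPL8 was at 425, 503 and 484 CPM in EphB2 + ephrin-B1 siRNA, against 506, 818 and 796 CPM in EphB2. It was at 416, 495 and 503 CPM in ephrin-B1 siRNA, against 615, 809.5 and 811 CPM in Ctrl. The 6 libraries with the siRNA thus lay below the 6 with control siRNA, whose lowest was replicate 1 of EphB2.

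The log2 fold change of RPL8 was −0.66 ± 0.174 after Ctrl-Fc (SE, adjusted p = 0.0917, 5.69e-05 with the block) and −0.59 ± 0.174 after EphB2-Fc (adjusted p = 0.195, 0.000379 with the block). Over 19 other settings without a block the change after Ctrl-Fc lay between −0.78 and −0.43, with adjusted p from 0.00597 (DESeq2) to 1 and a call in 2. Over 6 settings with the block it lay between −0.70 and −0.62 with a call in all 6, and after EphB2-Fc 5 of 6 gave a call, with an adjusted p of up to 0.054. For EphB2-Fc the log2 fold changes of RPL8 were −0.08 ± 0.173 after control siRNA (adjusted p = 0.976) and −0.00 ± 0.173 after ephrin-B1 siRNA (adjusted p = 1).

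The transcripts of RPL8 were read separately as well. The transcript with the most counts keeps an intron and is 717 bases long. It was at 185, 201 and 196 CPM in EphB2 + ephrin-B1 siRNA, against 233, 389 and 339 CPM in EphB2, and at 205, 245 and 225 CPM in ephrin-B1 siRNA, against 294, 361 and 353 CPM in Ctrl. A protein-coding transcript of 965 bases was at 103, 135 and 134 CPM in EphB2 + ephrin-B1 siRNA, against 117, 205 and 217 CPM in EphB2, and at 59.2, 103 and 96.2 CPM in ephrin-B1 siRNA, against 112, 211 and 221 CPM in Ctrl. The mean of each was lower with the siRNA with either Fc protein.

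EEF2 and EEF1B2 were the other members called lower with the siRNA in both blocked comparisons, for which no share of all genes is given. Over both comparisons only 5 of 85 members were lower with the siRNA in 6 of 6 pairs, against 10.3% of all genes. EEF2 (chromosome 19, 3976056 to 3985463, minus strand) was at 1353, 2624 and 1976 CPM in EphB2 + ephrin-B1 siRNA, against 1412, 3926 and 2845 CPM in EphB2, and at 1502, 2938 and 2306 CPM in ephrin-B1 siRNA, against 1821, 4253 and 3263 CPM in Ctrl. Groups overlapped widely, and in each the highest library was replicate 2. The log2 fold change was −0.47 ± 0.403 after Ctrl-Fc (adjusted p = 0.761, 0.00257 with the block) and −0.46 ± 0.403 after EphB2-Fc (adjusted p = 0.813, 0.00737 with the block). Over 6 settings with the block the adjusted p of EEF2 reached 0.093 and 0.226.

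EEF1B2 was at 66.9, 110.4 and 86.6 CPM in EphB2 + ephrin-B1 siRNA, against 74.1, 128 and 111 CPM in EphB2, and at 74, 119.6 and 96.6 CPM in ephrin-B1 siRNA, against 83.4, 138 and 122 CPM in Ctrl. It was lower in 6 of 6 pairs, with log2 fold changes of −0.25 after Ctrl-Fc (adjusted p = 0.829, 0.00422 with the block) and −0.25 after EphB2-Fc (adjusted p = 0.858, 0.00705 with the block). Over 6 settings with the block its adjusted p reached 0.129 and 0.231. EEF1D and EEF1G encode its partners in the same complex. EEF1D was at 119.5, 145 and 131 CPM in EphB2 + ephrin-B1 siRNA, at 107, 149 and 149 CPM in EphB2, at 115, 147 and 133 CPM in ephrin-B1 siRNA, and at 124, 157 and 142 CPM in Ctrl. EEF1G was at 1117, 1748 and 1468 CPM in EphB2 + ephrin-B1 siRNA, at 985, 1774 and 1543 CPM in EphB2, at 1259, 1986 and 1691 CPM in ephrin-B1 siRNA, and at 1308, 1852 and 1708 CPM in Ctrl. Groups overlapped in both genes, and over the 4 comparisons of 1 treatment the log2 fold changes were −0.10 to 0.00 for EEF1D and −0.19 to 0.02 for EEF1G.

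**Figure D4:**
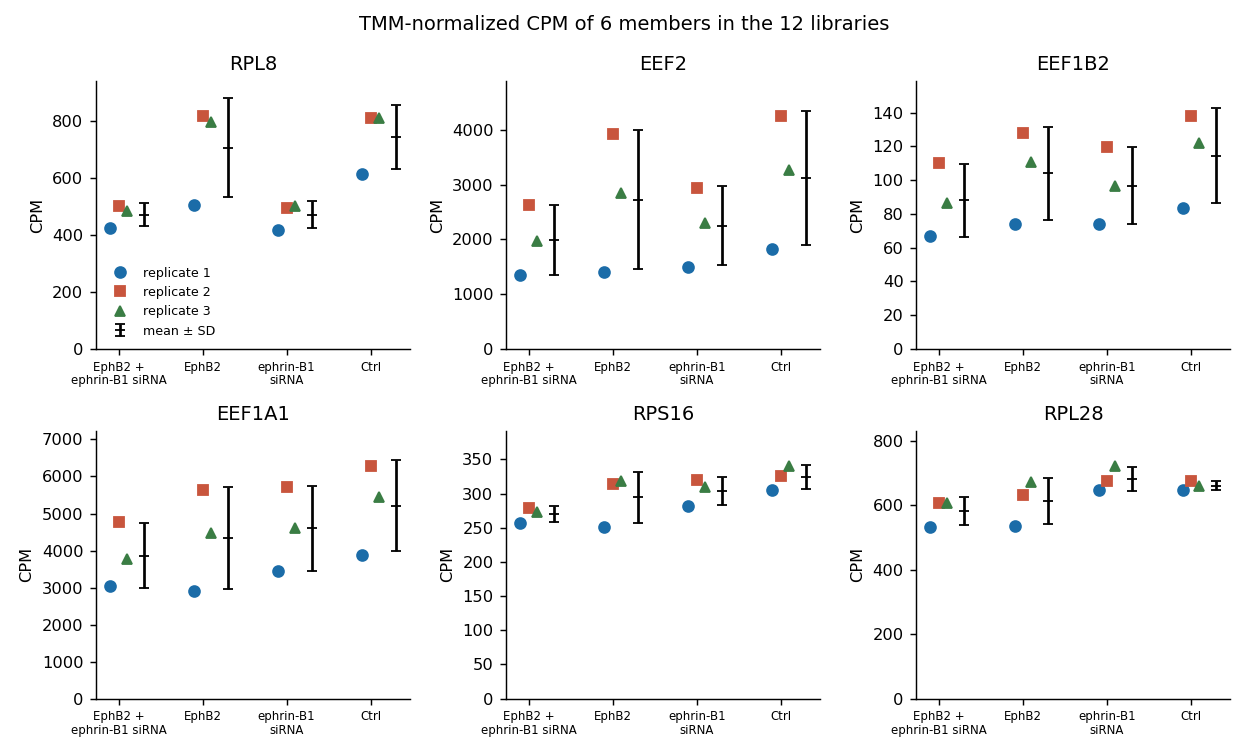
CPM of RPL8, EEF2, EEF1B2, EEF1A1, RPS16 and RPL28 in the 12 libraries (points, by replicate number) with the group mean (black dash) and SD (error bar) of 3 libraries. RPL8 lies at 416 to 503 CPM with ephrin-B1 siRNA and at 506 to 818 CPM without it, while in EEF2, EEF1B2 and EEF1A1 the replicates of a group are farther apart than the group means.

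EphB2 + ephrin-B1 siRNA vs Ctrl sets both treatments against neither. The median log2 fold change was −0.18, and −0.28 in log2(TPM + 1), and 76 of 85 members were negative, against 49.7% of all genes. In log2(TPM + 1) the median of all genes was −0.053, and that of genes with a mean above 20 CPM was −0.11. Without the block 0 members were called, against 2.01% of all genes, 2 had an unadjusted p under 0.05, and DESeq2 called 1, RPL8. Of all 21601 genes 2880 had an unadjusted p under 0.05 by edgeR without the block. With the block 38 were called lower (44.7%), against 9.04% of all genes, and 0 higher, of which 20 were of the large subunit, 12 of the small subunit, 3 of the stalk and 3 elongation factors. Without replicate 3 the blocked fit called 7, and with the length offset as well as the block 22 were called. The shares of all genes in these settings are not given here. In 3 of 3 pairs 55 members were lower and 2 higher, against 23.2% of all genes lower.

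EEF2 had a log2 fold change of −0.65 ± 0.404 here (adjusted p = 0.576, 0.000169 with the block). RPS16 of the small subunit was at 256, 279 and 274 CPM in EphB2 + ephrin-B1 siRNA, against 306, 326 and 341 CPM in Ctrl, with no overlap (−0.27 ± 0.0943, adjusted p = 0.217, 0.00209 with the block). With a single treatment RPS16 was at 251, 313 and 319 CPM in EphB2 and at 282, 321 and 309.8 CPM in ephrin-B1 siRNA. RPL22, a large subunit protein that also binds viral RNAs, was at 120.2, 171 and 160.4 CPM in EphB2 + ephrin-B1 siRNA, at 119, 196 and 223 CPM in EphB2, at 137, 196 and 177 CPM in ephrin-B1 siRNA, and at 163, 234 and 228 CPM in Ctrl (−0.47 ± 0.231 for both treatments against neither, adjusted p = 0.423, 0.000832 with the block). RPLP0 of the stalk, which takes part in recruiting elongation factors, was at 802, 1399 and 1078 CPM in EphB2 + ephrin-B1 siRNA, against 981, 1874 and 1548 CPM in Ctrl (−0.43 ± 0.339, adjusted p = 0.698, 0.000287 with the block).

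Of 6 settings with the block 6 called RPLP0 and 5 each called RPS16 and RPL22, with an adjusted p of up to 0.0933 for RPS16 and 0.0818 for RPL22.

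Other members had smaller differences, and of RPL23A, RPS2 and RPL4 each was called in 5 of 6 settings with the block. RPL23A, of the large subunit at the exit tunnel, was at 246, 310.2 and 277 CPM in EphB2 + ephrin-B1 siRNA, against 299, 349.6 and 346 CPM in Ctrl (−0.26 ± 0.153, adjusted p = 0.553, 0.0115 with the block). RPS2, at the mRNA entrance of the small subunit, was at 1028, 1484 and 1252 CPM in EphB2 + ephrin-B1 siRNA, against 1315, 1735 and 1562 CPM in Ctrl (−0.29, adjusted p = 0.594, 0.00177 with the block). RPL4, which lines the exit tunnel, was at 1095, 1703 and 1364 CPM in EphB2 + ephrin-B1 siRNA, against 1270.4, 1885 and 1671 CPM in Ctrl (−0.21, adjusted p = 0.813, 0.0064 with the block). RPS21, the most abundant member, was at 521, 679 and 532 CPM in EphB2 + ephrin-B1 siRNA, against 514, 798 and 709 CPM in Ctrl (−0.22, adjusted p = 0.806, 0.0824 with the block).

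RPS9 had the largest fitted difference among the members, −0.97 ± 0.485 (adjusted p = 0.44, 0.143 with the block), at few counts. It was at 8.49, 6.61 and 5.45 CPM in EphB2 + ephrin-B1 siRNA, at 4.29, 10.2 and 13.6 CPM in EphB2, at 7.26, 12.7 and 17.5 CPM in ephrin-B1 siRNA, and at 5.77, 14.5 and 19.9 CPM in Ctrl, and the pairs went in both directions. Of the readthrough loci, RPL17-C18orf32 was at 4.95, 5.91 and 2.88 CPM in EphB2 + ephrin-B1 siRNA, against 8.89, 8.18 and 7.45 CPM in ephrin-B1 siRNA, with no overlap (adjusted p = 0.68, 0.129 with the block). RPL36A-HNRNPH2 was at 0.314, 0.819 and 1.63 CPM in EphB2 + ephrin-B1 siRNA, at 1.03, 0.253 and 1.91 CPM in EphB2, at 0.368, 0.935 and 0.817 CPM in ephrin-B1 siRNA, and at 0.374, 0.723 and 1.31 CPM in Ctrl. RPS10-NUDT3 was at 11.9, 14.3 and 10.9 CPM in EphB2 + ephrin-B1 siRNA, at 6.8, 14.4 and 9.97 CPM in EphB2, at 9.26, 13.1 and 12.1 CPM in ephrin-B1 siRNA, and at 9.74, 10.7 and 8.68 CPM in Ctrl. Its libraries with both treatments lay above Ctrl with no overlap (0.35 ± 0.238, adjusted p = 0.624, 0.13 with the block), and the groups of the other comparisons overlapped.

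**Figure D5:**
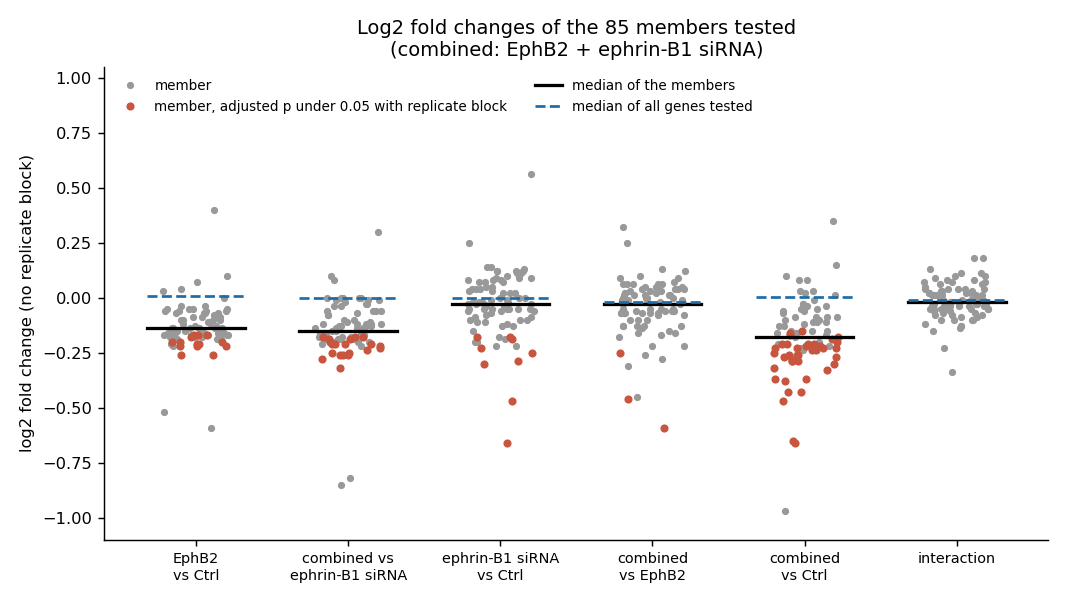
Log2 fold changes of the 85 members tested in the 6 comparisons (points, fit without the block), with the median of the members (black line) and of all 21601 genes (dashed line); combined is EphB2 + ephrin-B1 siRNA. Red points had an adjusted p under 0.05 in the fit with the block, 14, 20, 9, 3, 38 and 0 from left to right, and all were below 0.

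The interaction asks whether EphB2-Fc acted differently with ephrin-B1 siRNA than with control siRNA. Its median over the members was −0.02, 49 of 85 were negative, and the values lay between −0.34 and 0.18. By edgeR 0 of 85 members were called without the block, with 0 at an unadjusted p under 0.05 and 0 by DESeq2, and 0% of all genes were called. Of all 21601 genes 498 had an unadjusted p under 0.05 in the edgeR fit without the block. With the block 0 members were called, and 0.00463% of all genes were called lower. For EEF1A1 the interaction was 0.01 ± 0.384, and for RPL8 0.07 ± 0.245, and a difference between the siRNAs was not detectable within these errors.

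Part of the counts lay on transcripts that do not encode the protein. Transcripts with a retained intron took 7.33% to 8.26% of the members' counts in a library and a median of 1.87% per gene, but more than 40% in 5 genes: RPL14 (67.9%), RPL4 (63.5%), RPS23 (48.1%), RPL8 (45.5%) and RPL11 (41.9%). In RPS3 and RPS9 of the small subunit the most counted transcript was of the nonsense-mediated decay type, and protein-coding transcripts took 33% and 41.7% of the counts. In RPL8 the share on transcripts with a retained intron was 40.8% to 44.4% in EphB2 + ephrin-B1 siRNA and 43.1% to 48.1% in EphB2. It was 45.8% to 50.3% in ephrin-B1 siRNA and 44.1% to 48.3% in Ctrl.

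Ribosomal protein genes have many processed pseudogenes with near-identical sequence, 1661 in the annotation. They took 0.0457% to 0.0691% of the paired counts, and a median of 0.312% of the counts of a member and its pseudogenes together. In RPL23A this was 40.4%, in RPL21 28.1%, in RPL36A 26.1% and in RPS9 15%, so that the levels of these 4 genes are uncertain. Of 520 pseudogenes tested 0 were called for EphB2-Fc without the block, with medians of 0.06 after control siRNA and 0.07 after ephrin-B1 siRNA.

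Other genes of translation were followed as lists. The 15 other mRNAs known to carry a 5'TOP motif include PABPC1 (poly(A)-binding protein), EIF3E and EIF3L (subunits of the initiation factor eIF3), VIM, TPT1, FAU and RACK1. All 15 had a negative log2 fold change for EphB2-Fc after control siRNA (median −0.13) and after ephrin-B1 siRNA (median −0.16), 0 were called without the block, and 7 and 8 were called lower with it, against 3.20% and 4.11% of all genes. PABPC1 was at 1069.8, 1799 and 1397 CPM in EphB2 + ephrin-B1 siRNA, against 1294, 2075 and 1758 CPM in ephrin-B1 siRNA, and at 1118, 1979.9 and 1716 CPM in EphB2, against 1395, 2295 and 1916 CPM in Ctrl (log2 fold change −0.27 and −0.22, adjusted p = 0.9 and 0.938, 0.00386 and 0.0123 with the block). VIM, also among the mesenchymal markers, had −0.29 in ephrin-B1 siRNA vs Ctrl (adjusted p = 0.636, 0.000554 with the block).

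A further list of 28 initiation factors, which was not screened for such a motif, had medians of 0.00 and 0.01 for EphB2-Fc after control and ephrin-B1 siRNA. EIF4A1, the helicase of eIF4F, was at 299, 354 and 323 CPM in ephrin-B1 siRNA, against 448, 654 and 596 CPM in Ctrl, and fell by 0.80 on the log2 scale (adjusted p = 0.0292). After EphB2-Fc it was at 362, 435 and 389.9 CPM in EphB2 + ephrin-B1 siRNA, against 474, 694 and 621 CPM in EphB2 (−0.59, adjusted p = 0.15). Of 9 other elongation and termination factors, EIF5A2, a paralog of EIF5A, was at 32.7, 26 and 29.1 CPM in EphB2 + ephrin-B1 siRNA, against 43.9, 56.4 and 47.4 CPM in EphB2, and at 31.7, 25.4 and 27 CPM in ephrin-B1 siRNA, against 38.6, 42.7 and 41.5 CPM in Ctrl. It fell with the siRNA in both (log2 fold change −0.75 and −0.55, adjusted p = 0.0234 and 0.045).

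Genes of ribosome assembly and the nucleolus had values of the other sign. Of 33 genes only 3 had a negative log2 fold change for EphB2-Fc after control siRNA (median 0.10) and 3 after ephrin-B1 siRNA (median 0.14). Without the block 0 were called in these, and with it 2 and 10 were called higher and 0 lower, against 2.13% and 2.82% of all genes called higher. GRWD1, whose yeast counterpart is a chaperone of the ribosomal protein Rpl3, was at 63.9, 60.4 and 65.1 CPM in EphB2 + ephrin-B1 siRNA, at 50.4, 48.8 and 53.9 CPM in EphB2, at 55.6, 49.4 and 53 CPM in ephrin-B1 siRNA, and at 49.3, 47.4 and 50.3 CPM in Ctrl. It rose with both treatments against neither by 0.37 on the log2 scale (adjusted p = 0.0177), with no overlap.

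Among 14 genes of the control of 5'TOP mRNAs by mTORC1, 2 were called higher and 0 lower in ephrin-B1 siRNA vs Ctrl without the block. Of all genes 1.81% were called there, in either direction. With the block 2 of the 14 were called higher and 3 lower, against 7.06% of all genes called lower. SESN2, an inhibitor of mTORC1 that senses leucine, was at 25.4, 19.7 and 23.3 CPM in EphB2 + ephrin-B1 siRNA, against 13.3, 10.2 and 12.9 CPM in EphB2 (log2 fold change 0.91, adjusted p = 0.0227), and at 24.7, 21.2 and 22.8 CPM in ephrin-B1 siRNA, against 16, 12.2 and 13.7 CPM in Ctrl (0.72, adjusted p = 0.0293). LARP4, which binds poly(A) tails, was at 181, 194 and 176 CPM in ephrin-B1 siRNA, against 147, 153 and 147 CPM in Ctrl (0.30, adjusted p = 0.0274), and had 0.23 after EphB2-Fc (adjusted p = 0.131). MTOR had −0.35 and −0.35 with the siRNA (adjusted p = 0.216 and 0.274). DDIT4, also on the list, had −0.29 in ephrin-B1 siRNA vs Ctrl (adjusted p = 0.155, 0.0163 with the block). With the siRNA after EphB2-Fc it had 0.11 (adjusted p = 0.788). In EphB2 vs Ctrl it had −0.39 (adjusted p = 0.228, 0.00653 with the block). In that comparison 3 of the 14 were called lower and 0 higher with the block, against 3.20% of all genes called lower.

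The 78 proteins of the mitochondrial ribosome, which translates mitochondrial mRNAs and is built from other genes, had medians of −0.02 and 0.01 for EphB2-Fc, with 46 and 38 negative and 0 called without the block. With the siRNA MRPL11 was lower, at 43.3, 33.8 and 37.2 CPM in ephrin-B1 siRNA, against 64.6, 57.3 and 58.6 CPM in Ctrl (−0.66, adjusted p = 0.0136). The 8 ribosomal protein paralogs outside the set, of which 7 were tested, had medians of 0.05 and −0.09 and 0 calls without the block. Of 10 snoRNA host genes 1 was tested, SNHG32, with −0.14 and −0.28 for EphB2-Fc.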

How the data were processed

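The authors quantified the reads of each library by kallisto on GRCh38 cDNA (version not given in the sources used here) and deposited, for every transcript, an estimated count, a TPM value, and its length and effective length (other values). Transcript IDs were looked up in GENCODE 44, which covered 167067 of 188753 transcripts and 95.3% to 96% of the counts. Gene values are sums over transcripts, with the deposited estimated counts made whole numbers. Genes needed 10 counts over the 12 libraries. The main test was edgeR 4.0.16 (quasi-likelihood, TMM, 4 groups in 1 fit, no block, Benjamini-Hochberg adjustment, threshold 0.05), and every adjusted p is from edgeR unless another tool is named. CPM are after TMM, and pairs of libraries were compared on log2(CPM + 0.5). The deposited TPM served for levels and in limma 3.58.1 on log2(TPM + 1).

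Replicate numbers were treated as pairs because the submitted file names give same-numbered libraries 1 experiment number. Deviations from the group means were correlated between libraries over 12999 genes. Libraries of replicate 1 correlated at 0.708 to 0.762, those of replicate 2 at 0.717 to 0.749, and those of replicate 3 at only 0.087 to 0.202. Over 84 members alone the ranges were wider, at 0.223 to 0.812, 0.42 to 0.756 and −0.0546 to 0.758. Pairing of replicate 3 thus comes from the file names and not from the data. The block took the biological coefficient of variation to 0.0649, against 0.182 in its absence.

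The members, lists and tests were chosen with earlier results of these data known. By rule, values by library were given for the 10 members with the smallest p over the comparisons (none passed the threshold), the 5 elongation factors, the 5 highest and 5 lowest in TPM (the Y-linked left out), the 4 most and 4 least even with at least 100 counts in every library, and the 4 with the largest step between replicates 1 and 2. Some genes that the rule takes are not reported here. In other lists, up to 4 genes with the smallest p were eligible. RPL6, RPLP0, RPL9, MTOR, SNHG32, RPL3, RPS4X and the genes with many counts on retained introns or pseudogenes were chosen after their values were seen. Alternatives were DESeq2 1.42.0, other normalizations, filters, length offsets and transcript sets, the block, limma, and leaving out libraries. The tests were run on simulated counts that held no replicate effect, so that this does not check the calls made with the block. Other programs were R 4.3.3, Python 3.11.15, pandas 2.3.3, numpy 2.4.6, scipy 1.17.1 and matplotlib 3.10.9.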

Additional observations from a re-analysis of the deposited data

How the results depend on the processing

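Counts of called members are given in the order EphB2-Fc with control siRNA, EphB2-Fc with ephrin-B1 siRNA, the siRNA with Ctrl-Fc, the siRNA with EphB2-Fc, and both treatments against neither. The fit without a block called 0 in each. Shares of all genes called are given above for the edgeR fits with and without the block, and not for the other settings. With the replicate block edgeR called 14, 20, 9, 3 and 38, and with the block and an offset for effective transcript length 2, 7, 2, 2 and 22. DESeq2 called 0, 0, 1, 1 and 1. With the block DESeq2 called 36, 34, 16, 9 and 48, an alternative chosen after seeing the data. The block with a replicate number left out of every group, also chosen after seeing the data, called 4, 22, 12, 17 and 39 without replicate 1, 16, 8, 8, 2 and 35 without replicate 2, and 0, 0, 1, 0 and 7 without replicate 3. Leaving out libraries without a block gave 0 to 1 for the siRNA with Ctrl-Fc, 0 to 1 for the siRNA with EphB2-Fc and 0 to 3 for both treatments against neither (RPL8, RPL22 and RPS9 without replicate 1), and 0 elsewhere. The interaction had 0 under every setting run; the fit of only the groups compared was not run for it.

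The 15 settings taken next include the block with a replicate number left out of every group, and not limma. Over them the median log2 fold change of the members lay between −0.20 and −0.10, −0.16 and −0.13, −0.06 and −0.00, −0.07 and 0.07, and −0.22 and −0.13. By limma on log2(TPM + 1) it was −0.22, −0.44, 0.16, −0.07 and −0.28, so that the third changed sign. With libraries left out and no block the median lay between −0.28 and 0.05, −0.32 and 0.00, −0.17 and 0.14, −0.22 and 0.11, and −0.34 and −0.03, so that the first 4 reached 0 or changed sign. The sign of some single genes changed as well. For the siRNA with Ctrl-Fc, EEF1D was at 0.12 by limma. For EphB2-Fc with control siRNA, RPL36A was at 0.02 with the block and no replicate 1, and between −0.34 and 0.24 with libraries left out, and RPL36A-HNRNPH2 between −0.33 and 0.93. For EphB2-Fc with ephrin-B1 siRNA, RPL13 lay between −0.23 and 0.00 and RPL27A between −0.49 and 0.17. The cause was not tested. In all, 512 single-gene values kept sign and call, 74 passed the threshold and 11 changed sign.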
